A study of Mus musculus with 6 samples.

Results

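Semaphorins and their receptors, the plexins and neuropilins, were followed in mouse inguinal white adipose tissue (IngWAT), where 31 of the 46517 genes in the count files belong to the family. Members were the protein-coding genes whose GENCODE symbol on GRCm38 starts with Sema or Plxn, or is Nrp1 or Nrp2, and that had at least 1 count over all samples. They were 20 semaphorins, 9 plexins and 2 neuropilins. The least counted of them was Sema5b with 79 counts over the 6 samples, and no protein-coding gene of these names was left out for having no count.

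Semaphorins are secreted or membrane-bound ligands that share the sema domain and are known as cues that steer growing axons and vessels. Plexins are their signalling receptors, which act on small GTPases inside the cell. Neuropilins are coreceptors with a short cytoplasmic tail that most secreted class 3 semaphorins need in order to signal through plexins, and they also bind vascular endothelial growth factors. In fat the family is known from sympathetic nerve fibres, blood and lymphatic vessels and immune cells.

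The study asked how IngWAT changes when Hdac3, a histone deacetylase of repressor complexes, is lost from adipose tissue. Mice with a floxed Hdac3 gene on the BL6 background were bred to the line B6:FVB-Tg(Adipoq-cre)1Evdr/J from the Jackson Laboratory, and the knockout offspring are called H3atKO. The control group were Hdac3 floxed mice. Both groups were of strain C57Bl6, aged 5 to 9 months, kept in standard housing and fed chow. Cre is driven by the adiponectin promoter and acts in adipocytes, so the vessels, nerves, immune cells and precursors of the tissue keep Hdac3. RNA of the whole tissue from 2 or 3 mice was pooled for each sample, and there were 3 pools of each genotype, numbered 1 to 3 in the labels. In such bulk samples fewer cells of a type and less RNA per cell cannot be told apart. The p-values below measure the spread between pools.

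The targeted gene followed the labels. Hdac3 was at 68.9, 80.3 and 65.8 cpm in the floxed and 27.4, 21.1 and 12.9 cpm in the H3atKO pools, in the order of their replicate numbers, with a log2 fold change of -1.83 (SE 0.32, limma adjusted p = 0.0213). Here cpm is the usual count of a gene relative to the size of its library, which was scaled by TMM (trimmed mean of M values), and calls were made in limma over 14967 tested genes, where the p adjusted after Benjamini and Hochberg was under 0.05. Counts on genes ranged from 23865507 to 35200685 per library, so that 3 counts are worth between 0.0852 and 0.126 cpm before this scaling. Transcripts of the mitochondrial genome took 6.92% to 12.9% of counts in floxed and 26.9% to 35.3% in H3atKO libraries. Libraries also differed by the GC content of the transcripts they held. Across 14922 genes, the deviation of a library from the gene's mean had a Spearman rank correlation with GC content of 0.0969 to 0.800 in the floxed libraries, the lowest in replicate 3. In H3atKO libraries the correlation ran from -0.711 to -0.433. The order by GC content separates the genotypes, so the effects of the 2 cannot be told apart. Values after a GC correction, which removes a curve on GC content from each library, are therefore given for the members called in limma with or without the block described below, with a word on which calls of the partner genes it kept, and the curve takes away whatever follows GC content, genotype included.

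More members were lower than higher in H3atKO IngWAT. Of the 30 members that passed the filter on low counts, 1 rose (Sema3a) and 5 fell (Sema3b, Sema3g, Sema6c, Plxna1 and Plxnb2). Over all tested genes 9.42% were called higher and 7.07% lower. Log2 fold changes were negative for 24 members and positive for 6. Their median was -0.91 over the 19 tested semaphorins and -0.91 over the 11 receptors, against -0.09 over all tested genes. The median differed with the level of the members, as given below. The 3 H3atKO values lay below all 3 floxed values for 15 of the 30 members, 8 semaphorins and 7 plexins, where 28.6% of all tested genes did so. They lay above all floxed values for Sema3a alone, where the share over all tested genes was 23.1%. The remaining 14 members had overlapping groups.

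**Figure D1:**
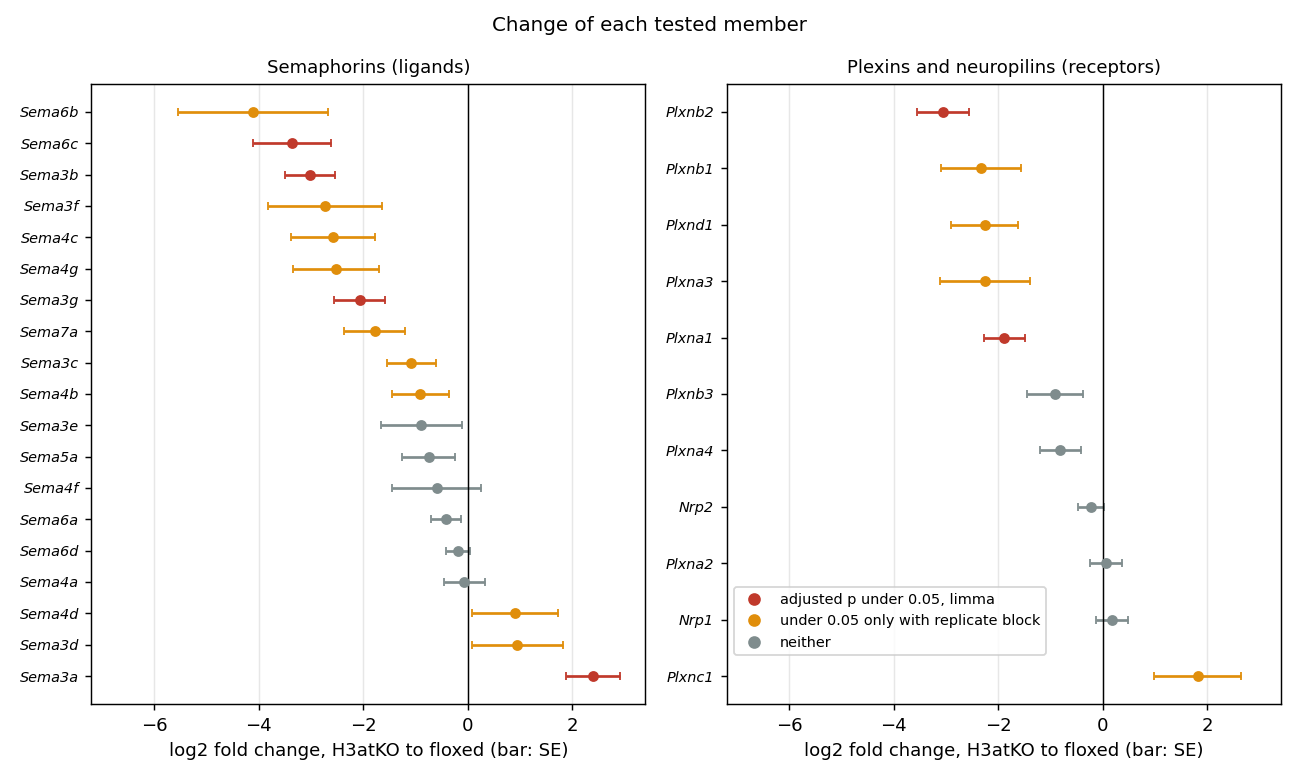
Log2 fold change from floxed to H3atKO for the 19 tested semaphorins (left) and the 11 receptors (right), with the standard error of limma as bars (n = 3 pools per genotype). Colours mark an adjusted p under 0.05 in limma without the replicate block, only with it, or in neither. Most points lie left of 0, from -4.11 for Sema6b, with Sema3a at 2.4 and Plxnc1 at 1.81 on the other side.

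The labels do not say what the replicate numbers stand for. Libraries with the same number deviated together, and a fit with the replicate number as a block called more members. It called 4 higher, namely Sema3a, Sema3d, Sema4d and Plxnc1, and 15 lower, where 24.8% and 28.7% of all tested genes were called. The 15 were the 5 genes above and Sema3c, Sema3f, Sema4b, Sema4c, Sema4g, Sema6b, Sema7a, Plxna3, Plxnb1 and Plxnd1. The GC correction left 1 call in each direction, Sema4a higher and Sema3c lower, where 5.59% and 3.1% of all tested genes were called. With block and correction together, Sema4a, Sema4d and Plxnc1 were called higher and Sema3c, Sema3e, Sema5a and Plxnb2 lower, against 13.1% and 9.75% of all tested genes. The calls also differed between tools, without block or correction. The quasi-likelihood test of edgeR called 1 member higher and 13 lower (12.8% and 18.4% of all tested genes), and DESeq2 called 2 higher and 13 lower (19.7% and 23.2%). Both called the 5 genes above and Sema3f, Sema4c, Sema4g, Sema6b, Sema7a, Plxna3, Plxnb1 and Plxnd1 lower and Sema3a higher, and DESeq2 alone of the 2 tools called Plxnc1 higher. Scaling by library sizes alone moved the median of all tested genes from -0.09 to -0.94 and called 1 member higher and 21 lower (2.04% and 37.9%), among them Sema4b and Sema5a. Without the filter on low counts 1 was higher and 6 lower (4.32% and 5.25%).

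Single libraries weighed on these counts. Without floxed replicate 3, limma called 1 member higher and 14 lower (18.5% and 25.9% of all genes tested then). Leaving out floxed replicate 1 left Plxnb2 as the single call, with 1.01% of all genes called higher and 0.611% lower. Leaving out H3atKO replicate 2 left Plxnb2 and Sema3b, both lower (2.64% and 0.93%). Without floxed replicate 2 no member was called (0.00673% and 0.0%), although 1 was higher and 12 lower at an unadjusted p under 0.05. No member was called without H3atKO replicate 1 (1.34% and 0.317%) or without H3atKO replicate 3 (0.584% and 0.134%). At an unadjusted p under 0.05, limma then had 1 higher and 9 lower without H3atKO replicate 1, and 1 higher and 6 lower without H3atKO replicate 3.

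Of the 6 called members, 4 have a promoter window in RefSeq on GRCm38.p6, and these are printed because their genes carried the calls. Each is the 250 bases before the RefSeq start nearest to the 5′ end of the GENCODE gene, read 5′ to 3′ on the strand of the gene. Capitals mark matches, on either strand, to a GC box (GGGCGG) or a CCAAT box (CCAAT). At the second CCAAT match of Sema6c the matches to both boxes overlap in a single run of capitals.
Plxnb2, chr15:89180789-89181038, minus strand: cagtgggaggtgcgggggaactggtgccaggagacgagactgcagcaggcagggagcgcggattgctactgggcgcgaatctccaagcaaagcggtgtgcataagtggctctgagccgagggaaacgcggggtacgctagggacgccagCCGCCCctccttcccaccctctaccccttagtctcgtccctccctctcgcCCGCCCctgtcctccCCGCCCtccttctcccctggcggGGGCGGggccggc
Sema3g, chr14:31217623-31217872, plus strand: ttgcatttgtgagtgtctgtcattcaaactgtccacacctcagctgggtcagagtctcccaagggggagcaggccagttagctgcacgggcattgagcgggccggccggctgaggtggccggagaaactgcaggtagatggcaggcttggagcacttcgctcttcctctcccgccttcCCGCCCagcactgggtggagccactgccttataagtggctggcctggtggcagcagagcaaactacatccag
Sema6c, chr3:95160170-95160419, plus strand: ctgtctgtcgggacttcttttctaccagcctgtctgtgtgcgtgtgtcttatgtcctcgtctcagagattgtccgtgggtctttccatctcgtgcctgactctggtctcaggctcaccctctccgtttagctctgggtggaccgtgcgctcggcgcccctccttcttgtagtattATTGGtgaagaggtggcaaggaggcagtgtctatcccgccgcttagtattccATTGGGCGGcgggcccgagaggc
Sema3a, chr5:13396534-13396783, plus strand: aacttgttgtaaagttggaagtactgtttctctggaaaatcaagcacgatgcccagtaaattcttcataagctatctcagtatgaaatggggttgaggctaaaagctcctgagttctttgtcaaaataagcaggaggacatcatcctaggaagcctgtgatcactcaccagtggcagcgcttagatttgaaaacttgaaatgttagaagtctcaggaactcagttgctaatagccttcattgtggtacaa

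The windows differed in base composition. That of Plxnb2 had 69.2% G and C, that of Sema3g 60.4%, that of Sema6c 57.6% and that of Sema3a 40.8%, against a median of 52.4% over 32851 windows. The Sema3a window precedes the only RefSeq start given for the gene, which lies 271370 bases from the 5′ end of the GENCODE gene. At least 1 GC box was found in 20 of the 26 members with a window and in 3 of these 4, where 32.7% of all windows hold one. A CCAAT box was found in 4 of 26 members and, of the 4, in Sema6c alone (33.8% of all windows). The letters of the TATA box (TATAAA) were in 0 of the 26 windows (12.4% of all), those of the nuclear receptor half-site (AGGTCA) in 5 (14%) and those of the E-box (CACGTG) in 1, that of Sema6d (6.02%). None of these last 3 was found in the 4 windows printed.

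Levels can be compared between genes only per length. In cpm per kilobase of exon (RPKM), Nrp1 had the highest level of the family in each of the 6 libraries, at 26.4 ± 1.81 RPKM (SD, n = 3) in floxed and 30.9 ± 10.8 RPKM in H3atKO pools. Sema3c came next over all libraries at 13.4 ± 7.46 RPKM (SD, n = 3) in floxed and 6.22 ± 2.27 RPKM in H3atKO, then Sema3g at 9.88 ± 4.37 RPKM (SD, n = 3) in floxed and 2.24 ± 0.680 RPKM in H3atKO. Nrp2, Sema6d, Sema4a, Plxna2 and Plxnd1 followed with means over all libraries of 4.55, 4.41, 3.56, 3.25 and 3.14 RPKM. From Sema3c down, each member in this order differed from the next by less than the larger of their SDs over the 6 libraries. At the other end, Sema5b was at 0.0763 ± 0.0201 RPKM (SD, n = 3) in floxed and 0.0204 ± 0.00768 RPKM in H3atKO. It did not pass the filter and was not tested, with 32, 20 and 18 counts in floxed and 5, 2 and 2 counts in H3atKO pools. By mean RPKM over all libraries, the 8 tested members at 3 or more had a median log2 fold change of -0.21. The median was -1.83 for the 10 members from 1 to 3 RPKM and -0.90 for the 12 under 1 RPKM. After the GC correction these medians were -0.03, -0.59 and -0.38.

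**Figure D2:**
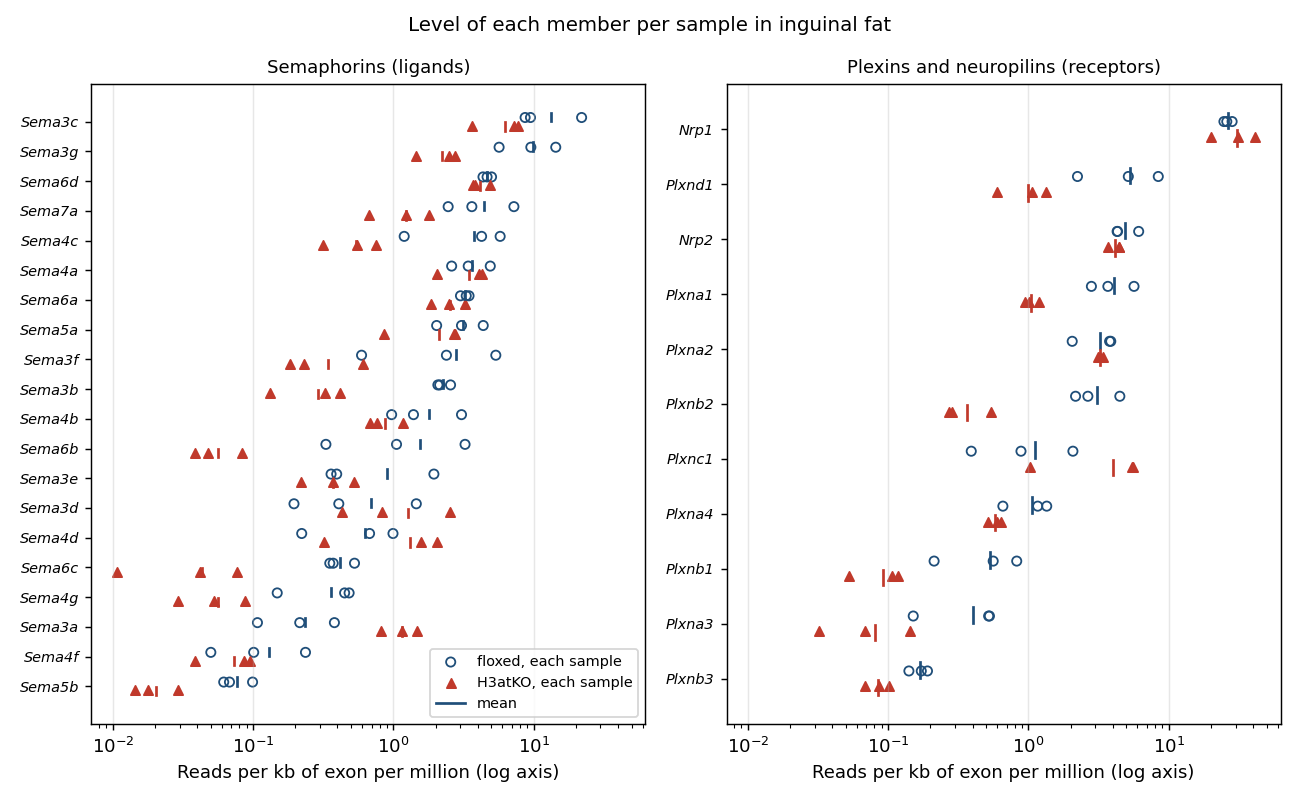
Level of each of the 31 members in RPKM on a log axis, semaphorins on the left and receptors on the right, ordered by the floxed mean, with 1 symbol per pool (circles floxed, triangles H3atKO) and short lines at the means. Nrp1 stands highest with overlapping groups, and Sema3c and Sema3g have the highest floxed means of the ligands.

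Ligands made up less of the family's RPKM in H3atKO than in floxed IngWAT. Semaphorins took 55.6%, 50.7% and 53.9% of the summed RPKM of all members in floxed and 40.8%, 41.3% and 34.0% in H3atKO pools, and the groups did not overlap. Their sum was 58.1 ± 10.1 RPKM (SD, n = 3) in floxed and 28.3 ± 3.19 in H3atKO pools. The receptors summed to 50.3 ± 4.23 RPKM in floxed and 45.7 ± 10.9 in H3atKO, with overlap. Nrp1 alone took 20.0%, 26.6% and 27.5% of the family in floxed and 33%, 42.1% and 47.7% in H3atKO pools. Shares are bound to sum to a whole, so a member that holds its level gains share when others are lower. The shares were taken without the GC correction. After it Nrp1 was at log2 -0.73, and the median log2 fold change was -0.53 over the tested semaphorins and -0.11 over the receptors. The part of GC content in the shares was not tested.

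The secreted class 3 semaphorins held both directions. Sema3a (ENSMUSG00000028883, chr5:13125414-13602565), a repellent of sympathetic and sensory axons that binds Nrp1, was at 2.99, 1.49 and 5.27 cpm in the floxed and 11.2, 16.1 and 20.4 cpm in the H3atKO pools. Every H3atKO pool was above every floxed pool, and the log2 fold change was 2.4 (SE 0.51, limma adjusted p = 0.0301). The replicate block kept the call (limma adjusted p = 0.00477), and the value after the GC correction was log2 1.43, limma adjusted p = 0.0682. Its printed window and its transcript, at 40.8% GC, were both poor in G and C.

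Sema3b (ENSMUSG00000057969, chr9:107597674-107609229), a neuropilin ligand known as a tumour suppressor, showed the reverse. It was at 12.2, 9.93 and 10.2 cpm in the floxed and 1.56, 1.99 and 0.632 cpm in the H3atKO pools, with groups far apart and a log2 fold change of -3.02 (SE 0.48, limma adjusted p = 0.0177). After the GC correction it was at log2 -1.40, limma adjusted p = 0.129. Sema3g (ENSMUSG00000021904, chr14:31217860-31230352), a ligand of Nrp2, was at 65.4, 43.4 and 25.8 cpm in the floxed and 11.4, 12.4 and 6.64 cpm in the H3atKO pools. All H3atKO values were below all floxed values, which themselves spanned a wide range, and the log2 fold change was -2.07 (SE 0.48, limma adjusted p = 0.0350). The corrected value was log2 -0.53, limma adjusted p = 0.125.

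Sema3c (ENSMUSG00000028780, chr5:17574281-17730268), which acts through both neuropilins and Plxnd1, had the highest mean RPKM of the ligands over all libraries. It did not lead in each pool. Sema3g was at 1.51 and 1.10 times Sema3c, per length, in floxed replicates 1 and 2. Sema4a (4.09 RPKM) and Sema6d (3.82 RPKM) were above Sema3c (3.62 RPKM) in H3atKO replicate 1. Sema3c was at 67.9, 62.2 and 157 cpm in the floxed and 25.8, 55.5 and 52.0 cpm in the H3atKO pools. Floxed replicate 3 was far above the other floxed pools, and the groups did not overlap. The log2 fold change of -1.08 (SE 0.46, limma adjusted p = 0.114) missed the threshold without the block and passed with it (limma adjusted p = 0.0340). Its transcript is poor in G and C (42.7%), and the change was larger after the GC correction (log2 -1.88, limma adjusted p = 0.0282).

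Sema3f and Sema3e mark the 2 ways in which floxed replicate 3 stood apart. Sema3f (ENSMUSG00000034684), a ligand of Nrp2 with a GC-rich transcript, was at 28, 12.4 and 3.09 cpm in the floxed and 1.19, 3.16 and 0.948 cpm in the H3atKO pools. Floxed replicate 3 was the lowest of its group, just below the highest H3atKO pool. Limma's log2 fold change of -2.73 (SE 1.08, limma adjusted p = 0.0967) missed the threshold and passed with the block (limma adjusted p = 0.0104), and after the GC correction the value was log2 -0.74, limma adjusted p = 0.410. Sema3e (ENSMUSG00000063531), which binds Plxnd1 without a neuropilin and restrains vessel growth, was at 3.67, 3.34 and 18.1 cpm in the floxed and 3.46, 2.04 and 4.87 cpm in the H3atKO pools. Here floxed replicate 3 was far above all other pools and the rest overlapped. Its log2 fold change of -0.89 (SE 0.78, limma adjusted p = 0.395) passed neither without nor with the block (limma adjusted p = 0.0863).

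Sema3d (ENSMUSG00000040254), which acts on endothelial cells, followed the replicate numbers. It was at 3.51, 1.68 and 12.5 cpm in the floxed and 7.17, 3.72 and 21.7 cpm in the H3atKO pools. Within each number the H3atKO pool was the higher, and replicate 2 was the lowest and replicate 3 the highest in both genotypes, so that the groups overlapped. The log2 fold change of 0.95 (SE 0.87, limma adjusted p = 0.412) missed the threshold and passed with the block (limma adjusted p = 0.0190) and was -0.12 after the GC correction (limma adjusted p = 0.919).

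Among the transmembrane class 4 semaphorins, Sema4a (ENSMUSG00000028064, chr3:88435959-88461182), known from the priming of T cells, had the highest mean RPKM over all libraries. In floxed pools alone its mean of 3.65 RPKM was just below that of Sema4c at 3.75 RPKM. Sema4a was at 26.6, 14.1 and 18.5 cpm in the floxed and 22.1, 23.1 and 11.1 cpm in the H3atKO pools, and the groups overlapped almost entirely. Its log2 fold change of -0.07 (SE 0.39, limma adjusted p = 0.908) had a 95% interval of -0.98 to 0.85. The GC correction set it apart from other GC-rich members, since it was then called higher (log2 1.54, limma adjusted p = 0.0476).

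Sema4c (ENSMUSG00000026121), a ligand of Plxnb2, was at 26.5, 19.6 and 5.49 cpm in the floxed and 2.51, 3.47 and 1.45 cpm in the H3atKO pools. The groups did not overlap, although floxed replicate 3 stood closer to the H3atKO pools than to the other floxed pools. For limma, the log2 fold change of -2.58 (SE 0.81, limma adjusted p = 0.0614) missed the threshold and passed with the block (limma adjusted p = 0.00342), and after the GC correction the value was log2 -0.82, limma adjusted p = 0.208. A transcript on the opposite strand, D430040D24Rik, overlaps 334 bases of its exons and received 282 counts against 2401 for Sema4c. Whether the counting used strand is not given in the sources used here. Sema4g (ENSMUSG00000025207) was low, at 4.19, 3.90 and 1.29 cpm in the floxed and 0.453, 0.765 and 0.253 cpm in the H3atKO pools, again without overlap. There the log2 fold change of -2.53 (SE 0.82, limma adjusted p = 0.0646) missed the threshold and passed with the block (limma adjusted p = 0.00723), and after the GC correction the value was log2 -0.71, limma adjusted p = 0.339.

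Sema4b (ENSMUSG00000030539) was at 17.3, 7.86 and 5.49 cpm in the floxed and 6.67, 4.33 and 3.86 cpm in the H3atKO pools. Floxed replicate 3 was below H3atKO replicate 1, and the log2 fold change of -0.91 (SE 0.55, limma adjusted p = 0.229) missed the threshold and passed with the block (limma adjusted p = 0.0272), while the GC-corrected value was positive (log2 0.75, limma adjusted p = 0.119). Sema4f was near the filter at 1.25, 0.265 and 0.535 cpm in the floxed and 0.453, 0.204 and 0.506 cpm in the H3atKO pools, with overlap and a log2 fold change of -0.60 (SE 0.85, limma adjusted p = 0.601).

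Sema4d (ENSMUSG00000021451, chr13:51685529-51793747), the lymphocyte antigen CD100 and a ligand of Plxnb1 and Cd72, was at 7.64, 1.71 and 5.20 cpm in the floxed and 12.1, 2.45 and 15.6 cpm in the H3atKO pools. Replicate 2 was the lowest pool of each genotype, and within each number the H3atKO pool was the higher. A log2 fold change of 0.91 (SE 0.83, limma adjusted p = 0.412) missed the threshold and passed with the block (limma adjusted p = 0.0374). With the GC correction alone Sema4d was not called (log2 1.84, limma adjusted p = 0.201). Block and correction together called it higher (log2 1.94, limma adjusted p = 0.0136).

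Class 5, 6 and 7 semaphorins ranged from the steadiest to the most changed ligands. Sema6d (ENSMUSG00000027200, chr2:124089969-124667770), a ligand of Plxna1, was at 49.2, 46.0 and 53.0 cpm in the floxed and 40.3, 39.3 and 51.7 cpm in the H3atKO pools. The groups overlapped, and its log2 fold change of -0.19 (SE 0.23, limma adjusted p = 0.530) had a 95% interval of -0.73 to 0.34. Sema6a, a ligand of Plxna2 and Plxna4, was at 26.5, 29.1 and 30.4 cpm in the floxed and 16.4, 28.6 and 21.8 cpm in the H3atKO pools, with overlap and a log2 fold change of -0.41 (SE 0.28, limma adjusted p = 0.284). Sema5a, known to bind Plxnb3, was at 38.1, 81.8 and 57.3 cpm in the floxed and 15.9, 51.7 and 50.3 cpm in the H3atKO pools, and the lowest floxed pool was below 2 of the H3atKO pools. Its log2 fold change of -0.75 (SE 0.51, limma adjusted p = 0.279) did not pass, while the block with the GC correction called it lower (log2 -1.10, limma adjusted p = 0.0384).

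Sema6c (ENSMUSG00000038777, chr3:95160457-95174024), a transmembrane ligand of low level, was at 3.14, 2.09 and 2.21 cpm in the floxed and 0.247, 0.459 and 0.0632 cpm in the H3atKO pools, which rests on 143, 87 and 91 and 6, 9 and 1 counts. No H3atKO pool came near a floxed one, and the log2 fold change was -3.36 (SE 0.75, limma adjusted p = 0.0329). After the GC correction the value was log2 -0.92, limma adjusted p = 0.512. Sema6b (ENSMUSG00000001227), a ligand of Plxna4, had the largest negative value of the family. It was at 12.9, 4.18 and 1.31 cpm in the floxed and 0.329, 0.153 and 0.190 cpm in the H3atKO pools, from 587, 174 and 54 and 8, 3 and 3 counts. The floxed pools themselves differed by more than the lowest of them did from the H3atKO pools, and the log2 fold change of -4.11 (SE 1.44, limma adjusted p = 0.0748) missed the threshold and passed with the block (limma adjusted p = 0.00424), and after the GC correction the value was log2 -1.42, limma adjusted p = 0.119.

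Sema7a (ENSMUSG00000038264, chr9:57940112-57962865) is anchored in the membrane by a glycolipid and binds Plxnc1 and integrin beta chains. It was at 23.9, 12.0 and 8.12 cpm in the floxed and 5.93, 4.08 and 2.21 cpm in the H3atKO pools, without overlap. With a log2 fold change of -1.78 (SE 0.59, limma adjusted p = 0.0666), it missed the threshold and passed with the block (limma adjusted p = 0.00385), and the value was 0.09 after the GC correction (limma adjusted p = 0.824).

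The coreceptors changed little against their spread. Nrp1 (ENSMUSG00000025810, chr8:128358604-128503363), which pairs with plexin A receptors for Sema3a and with Kdr for VEGF, was at 243, 254 and 278 cpm in the floxed and 196, 306 and 406 cpm in the H3atKO pools. The floxed pools were close together and the H3atKO pools lay on both sides of them. Its log2 fold change of 0.17 (SE 0.30, limma adjusted p = 0.675) had a 95% interval of -0.54 to 0.88, and the GC-corrected value had the other sign (log2 -0.73, limma adjusted p = 0.0981). Nrp2 (ENSMUSG00000025969, chr1:62703285-62818695), the coreceptor of Sema3f and Sema3g and of lymphatic growth factors, was at 50.9, 51.2 and 72.5 cpm in the floxed and 43.7, 52.1 and 52.7 cpm in the H3atKO pools. Floxed replicate 3 was the highest and the others overlapped, with a log2 fold change of -0.22 (SE 0.25, limma adjusted p = 0.504) and a 95% interval of -0.81 to 0.36. The level of Nrp1 over that of Nrp2, per length, was 5.77, 6.01 and 4.64 in floxed and 5.41, 7.12 and 9.34 in H3atKO pools.

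Plexins of the A type differed among themselves. Plxna1 (ENSMUSG00000030084, chr6:89316314-89362620), a receptor for Sema3a with Nrp1 and for Sema6d, was at 51.3, 33.4 and 25.5 cpm in the floxed and 10.8, 9.18 and 8.53 cpm in the H3atKO pools. The H3atKO pools were close together and far below the lowest floxed pool, and the log2 fold change was -1.88 (SE 0.39, limma adjusted p = 0.0287). The GC correction brought it to log2 -0.11, limma adjusted p = 0.829. The antisense gene Gm26811 overlaps its exons but had 3 counts in all. Plxna2 (ENSMUSG00000026640, chr1:194618218-194816869), a receptor of Sema6a, was at 66.5, 65.2 and 35.3 cpm in the floxed and 53.9, 58.1 and 55.5 cpm in the H3atKO pools. The H3atKO pools lay within the floxed range, and its log2 fold change of 0.06 (SE 0.30, limma adjusted p = 0.888) had a 95% interval of -0.65 to 0.77.

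Plxna3 (ENSMUSG00000031398), which answers Sema3f with Nrp2, was at 4.11, 4.16 and 1.19 cpm in the floxed and 0.535, 1.12 and 0.253 cpm in the H3atKO pools. Floxed replicate 3 was only just above H3atKO replicate 2, and the log2 fold change of -2.25 (SE 0.86, limma adjusted p = 0.0901) missed the threshold and passed with the block (limma adjusted p = 0.00964), and after the GC correction the value was log2 -0.95, limma adjusted p = 0.294. Plxna4, a receptor of Sema6a and Sema6b, was at 16.4, 19.1 and 9.28 cpm in the floxed and 7.29, 8.36 and 8.98 cpm in the H3atKO pools. The groups did not overlap, by a narrow gap, yet its log2 fold change of -0.81 (SE 0.40, limma adjusted p = 0.150) passed neither without nor with the block (limma adjusted p = 0.0546).

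Plexins of the B type were all lower in H3atKO pools without overlap. Plxnb2 (ENSMUSG00000036606, chr15:89155549-89180788), a receptor of Sema4c, was at 34.7, 16.8 and 20.5 cpm in the floxed and 4.20, 2.19 and 2.09 cpm in the H3atKO pools. The log2 fold change of -3.05 (SE 0.50, limma adjusted p = 0.0194) was the largest change of a receptor, with a 95% interval of -4.22 to -1.89. The call was lost with the GC correction (log2 -1.26, limma adjusted p = 0.136) and was made again with the block added to it (log2 -1.18, limma adjusted p = 0.0389). Plxnb1 (ENSMUSG00000053646), the receptor of Sema4d, was at 7.93, 5.39 and 2.04 cpm in the floxed and 1.03, 1.12 and 0.506 cpm in the H3atKO pools. A log2 fold change of -2.33 (SE 0.77, limma adjusted p = 0.0657) missed the threshold and passed with the block (limma adjusted p = 0.00509), and after the GC correction the value was log2 -0.50, limma adjusted p = 0.352. Plxnb3 was close to the filter at 1.12, 0.914 and 1.24 cpm in the floxed and 0.659, 0.561 and 0.443 cpm in the H3atKO pools, and its log2 fold change of -0.91 (SE 0.53, limma adjusted p = 0.216) did not pass.

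Plxnd1 (ENSMUSG00000030123, chr6:115954811-115995005), the endothelial receptor of Sema3e, had the second highest mean level per length of the receptors in floxed IngWAT, at 5.28 ± 3.10 RPKM (SD, n = 3), which did not differ from Nrp2 at 4.91 ± 1.04 RPKM beyond that spread. It was at 61.6, 37.7 and 16.4 cpm in the floxed and 7.78, 9.69 and 4.36 cpm in the H3atKO pools. The floxed pools differed widely from each other, and all were above the H3atKO pools. Its log2 fold change of -2.26 (SE 0.65, limma adjusted p = 0.0512) was just outside the threshold and passed with the block (limma adjusted p = 0.00338), whereas the GC-corrected value was near 0 (log2 0.08, limma adjusted p = 0.845). Plxnd1 per length was 2.18, 1.36 and 1.09 times Plxna2 in floxed and 0.340, 0.392 and 0.185 times in H3atKO pools.

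Plxnc1 (ENSMUSG00000074785, chr10:94790866-94944835), the receptor of Sema7a, had the highest log2 fold change of the receptors. It was at 7.40, 3.27 and 17.4 cpm in the floxed and 45.5, 8.57 and 46.8 cpm in the H3atKO pools. Replicate 2 was the lowest in each genotype, and H3atKO replicate 2 lay within the floxed range. A log2 fold change of 1.81 (SE 0.83, limma adjusted p = 0.131) missed the threshold and passed with the block (limma adjusted p = 0.00570). With the GC correction alone Plxnc1 was not called (log2 1.90, limma adjusted p = 0.182). Block and correction together called it higher (log2 1.96, limma adjusted p = 0.0147).

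Known pairs of ligand and receptor can be read side by side. The log2 fold change was -0.89 for Sema3e and -2.26 for its receptor Plxnd1, and -2.58 for Sema4c and -3.05 for Plxnb2. It was -1.78 for Sema7a against 1.81 for Plxnc1, and 0.91 for Sema4d against -2.33 for Plxnb1, so that these pairs had opposite signs. After the GC correction Sema3e was at -1.77 and Plxnd1 at 0.08, with opposite signs, and Sema4c at -0.82 and Plxnb2 at -1.26. Sema7a was then at 0.09 and Plxnc1 at 1.90, both positive, and Sema4d at 1.84 and Plxnb1 at -0.50. Of the genes in these pairs limma called Plxnb2 alone without block or correction. Sema3a rose while Nrp1 overlapped between genotypes and Plxna1 fell. The level of Sema3a over that of Sema3g, per length, was 0.0150, 0.0112 and 0.0670 in floxed and 0.324, 0.423 and 1.01 in H3atKO pools.

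Members followed the GC content of their transcripts. Over the 30 tested members, which share the same 6 libraries, the Spearman rank correlation between GC content and log2 fold change was -0.78, against -0.71 over 14922 genes. After the GC correction it was -0.097. All 17 members with at least 55% GC had negative values, with a median of -2.26, and among them were the 5 that fell. In the 10 members under 50% GC, 5 were positive and 5 negative with a median of -0.07. The same order was present between most pools of 1 genotype. In floxed pools the rank correlation was 0.81 for replicate 1 over 3, 0.61 for 2 over 3 and 0.41 for 1 over 2. In H3atKO pools it was 0.82 for replicate 1 over 3, 0.59 for 2 over 3 and only 0.065 for 1 over 2. The part of GC content in the difference between genotypes was not tested and cannot be told apart from it. The median of the 17 GC-rich members was -0.53 after the correction, and 13 of the 19 tested semaphorins and 6 of the 11 receptors then had negative values.

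**Figure D3:**
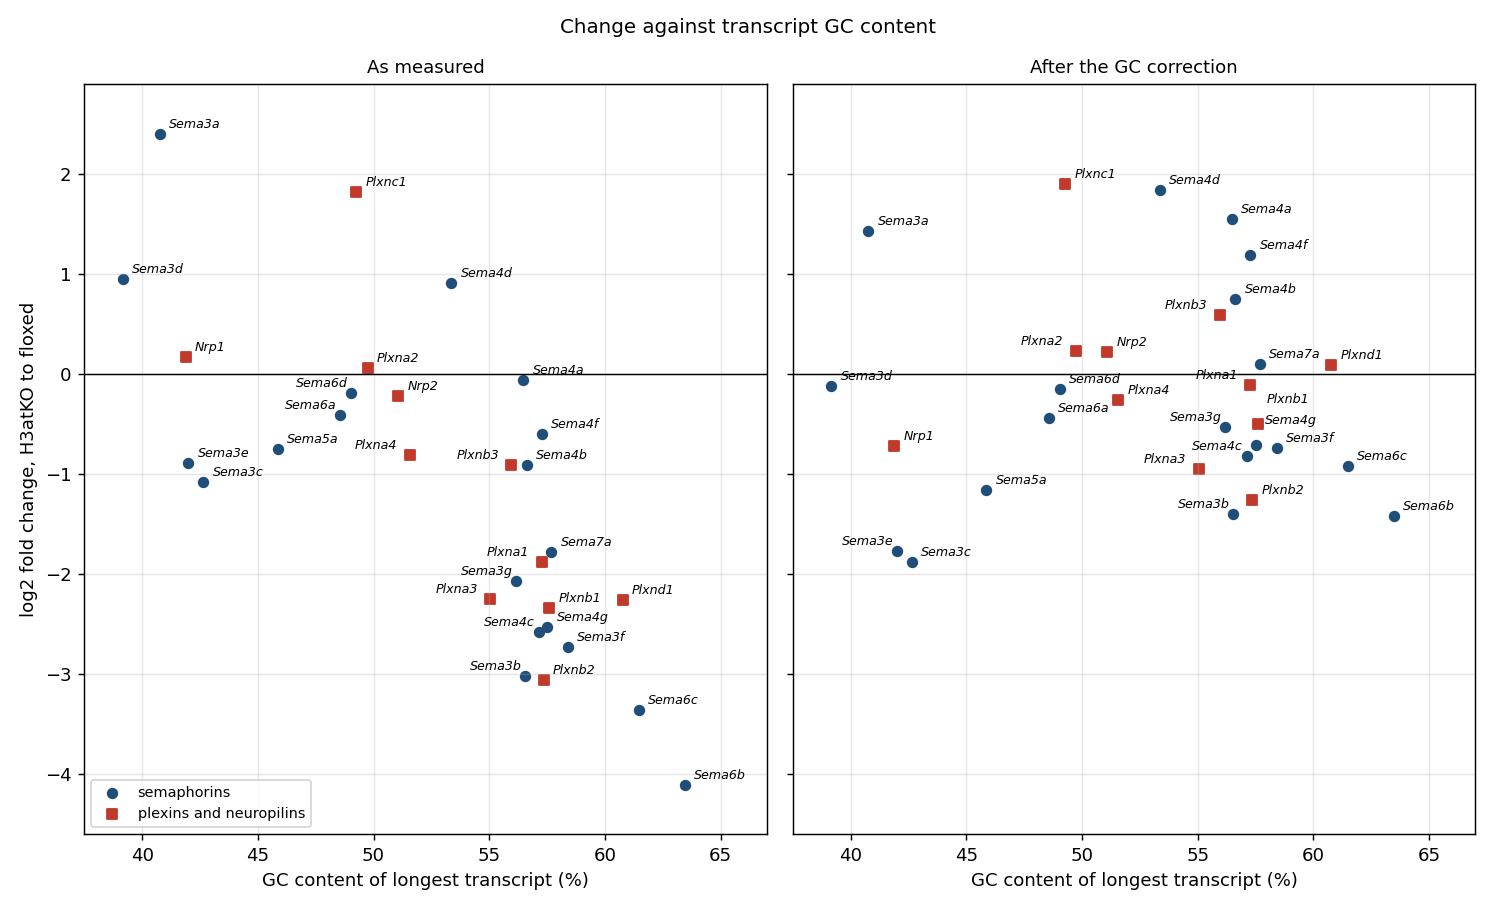
Log2 fold change of the 30 tested members against the GC content of the longest transcript, as measured (left) and after the GC correction (right), with circles for semaphorins and squares for receptors. The left cloud slopes down from Sema3a at 40.8% GC to Sema6b at 63.5% GC (rank correlation -0.78), and the right cloud shows no slope (rank correlation -0.097).

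**Figure D4:**
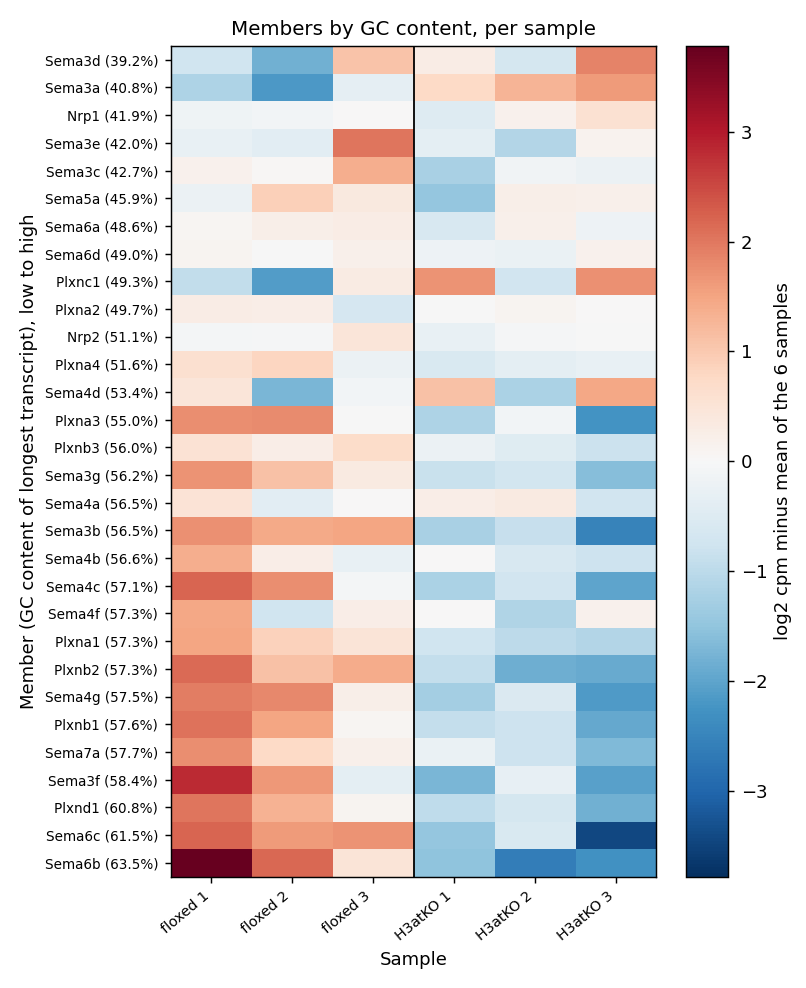
Each tested member in each of the 6 pools as log2 cpm minus the mean over the 6, with members from low to high GC content downwards and a line between genotypes. Most GC-rich members at the bottom are highest in floxed replicate 1 and lowest in H3atKO replicate 3, and Plxnc1, Sema4d and Sema3d are lowest in replicate 2 of both genotypes.

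Marker genes of other cell types moved between pools as well. Floxed replicate 3, where Sema3c and Sema3e were high, had a sum of 9226 cpm over 8 stromal markers, against 2679 to 2832 cpm in the other floxed and 1539 to 2463 cpm in the H3atKO pools. It also had 2401 cpm of 8 macrophage markers, against 470 to 723 cpm in the other floxed and 366 to 644 cpm in the H3atKO pools. Of these lists, limma called 2 stromal (Pi16 and Dpt) and 3 macrophage markers (Csf1r, C1qa and C1qb) lower, and 3 and 0 after the GC correction. Over all tested genes 7.07% were called lower, and 3.1% after the correction. Replicate 2, where Plxnc1, Sema4d and Sema3d were low, had 8.03 and 15.9 cpm of 8 T cell markers in floxed and H3atKO pools, against 65.7 and 185 cpm in replicate 1 and 5.98 and 130 cpm in replicate 3. T cell markers were thus low in floxed replicates 2 and 3 and in H3atKO replicate 2, and macrophage markers were lowest in replicate 2 of both genotypes. The 8 B cell markers summed to 135, 4.14 and 4.18 cpm in floxed and 388, 4.49 and 575 cpm in H3atKO pools. No B or T cell marker was called by limma or edgeR. At an unadjusted p under 0.05 limma had 2 T cell markers higher and 0 B cell markers, DESeq2 called 2 and 1 higher, and the replicate block 6 and 3. Of all tested genes DESeq2 called 19.7% higher and the block 24.8%. The part of these cells in the member values was not tested.

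Vessel and nerve markers were lower together with many members. Blood endothelial markers summed to 551 to 988 cpm in floxed and 245 to 330 cpm in H3atKO pools. Of the 8, 4 (Pecam1, Cdh5, Egfl7 and Esam) were called lower, where 7.07% of all tested genes were. The summed level of 8 Schwann cell markers was 102 to 127 cpm in floxed and 45.6 to 66.8 cpm in H3atKO pools, with 3 of the 7 tested called lower and Pmp2 at 0 in H3atKO replicates 2 and 3. For both lists, and for the stromal list, a two-sided exact permutation test gave p = 0.1, the smallest that 3 pools against 3 allow. Mural cell markers overlapped in sum, at 435 to 1547 cpm and 511 to 780 cpm, although 4 of 8 were called lower. Rgs5 of this list went the other way, with means of 305 cpm in floxed and 583 cpm in H3atKO pools (log2 0.98, limma adjusted p = 0.0703). With the block Rgs5 was called higher (limma adjusted p = 0.0114) and 7 mural markers lower. The block called 24.8% of all tested genes higher and 28.7% lower. After the GC correction 2 blood endothelial, 1 Schwann cell and 3 mural cell markers were called, all lower. Sums over lymphatic endothelial markers (37.0 to 170 cpm and 22.9 to 134 cpm) and adipocyte markers (13732 to 32029 cpm and 15715 to 26996 cpm) overlapped, and limma called none of either list. Most of the adipocyte sum was Fabp4, with means of 15911.5 cpm in floxed and 16331.2 cpm in H3atKO pools. Over the 8 adipocyte markers the median log2 fold change was -1.36, and -0.37 after the GC correction. Ccl21a was at 0 in H3atKO replicate 2. At an unadjusted p under 0.05 limma had 0 lymphatic and 2 adipocyte markers lower, and edgeR called 0 and 1, DESeq2 2 and 3 lower with 1 lymphatic marker higher. With the replicate block 2 lymphatic markers (Prox1 and Mmrn1) were called higher and 1 lower, and 3 adipocyte markers (Cidec, Lipe and Pnpla2) were called lower. Skeletal muscle markers ranged from 604 to 2711 cpm and from 2.84 to 3490 cpm, and epithelial markers summed to 5.75 cpm or less in all pools, with Krt14, Krt5, Cldn3 and Cldn7 at 0 in several. Limma called none of the 8 muscle or the 2 tested epithelial markers, nor did edgeR or DESeq2, and at an unadjusted p under 0.05 limma had 4 muscle and 0 epithelial markers lower. The part of any of these cells in the member values was not tested.

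Partners of the family were measured alongside. Among 13 tested coreceptors and other binding partners, Met, the receptor of hepatocyte growth factor that associates with plexins of the B type, rose from 38.2, 50.4 and 56.0 cpm in floxed to 90.9, 127 and 135 cpm in H3atKO pools (log2 1.28, limma adjusted p = 0.0295), and it was still called after the GC correction (log2 0.81, limma adjusted p = 0.0426). Its relative Mst1r fell from 48.8, 27.8 and 7.51 cpm to 0.659, 0.867 and 0.632 cpm (log2 -4.89, limma adjusted p = 0.0409). That call also held after the correction (log2 -3.27, limma adjusted p = 0.0352). Tyrobp, an adaptor of myeloid receptors, was the third call of the list (log2 -2.13, limma adjusted p = 0.0487), which the GC correction ended (log2 -0.88, limma adjusted p = 0.441). With the block 1 partner was called higher and 5 lower. Over all tested genes 9.42% were called higher and 7.07% lower, and 24.8% and 28.7% with the block.

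Inside the cell, 36 tested transducers had 3 calls higher and 3 lower, and 4 and 20 with the block, where the shares over all tested genes were 9.42% and 7.07%, and 24.8% and 28.7% with the block. Without the block these counts are close to the background, and the named genes are given one by one. Those that rose were Ranbp9, a scaffold that binds plexin A (log2 1.77, limma adjusted p = 0.0126), the GTPase Rap1a (log2 1.57, limma adjusted p = 0.0314) and the kinase Pak2 (log2 0.98, limma adjusted p = 0.0376). The lower calls were Fes, a kinase downstream of plexin A (log2 -3.78, limma adjusted p = 0.0379), the exchange factor Farp1 (log2 -2.09, limma adjusted p = 0.0345) and Rnd3, a small GTPase (log2 -1.33, limma adjusted p = 0.0300). Ranbp9, Fes and Rnd3 were still called after the GC correction (limma adjusted p = 0.0118, 0.0390 and 0.0250), and Rap1a (log2 0.47, limma adjusted p = 0.114), Pak2 (log2 0.29, limma adjusted p = 0.248) and Farp1 (log2 -0.65, limma adjusted p = 0.186) were not.

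Of 8 proteases that cleave semaphorins or their receptors, 4 fell, where 7.07% of all tested genes were called lower. The 3 with the largest change were Mmp14 (log2 -2.35, limma adjusted p = 0.0295), Pcsk6 (log2 -2.01, limma adjusted p = 0.0301) and Pcsk7 (log2 -1.98, limma adjusted p = 0.0437). Pcsk enzymes are the furin-like convertases that process class 3 semaphorins. Adam10 (log2 1.03, limma adjusted p = 0.0903) and Adam17 (log2 0.90, limma adjusted p = 0.0746), which shed membrane proteins, had positive values and were called higher with the block (limma adjusted p = 0.00641 and 0.0273). The block called 5 of the 8 lower, where it called 24.8% of all tested genes higher and 28.7% lower. None of the 8 was called after the GC correction, where the median of the list went from -1.56 to -0.38.

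Other guidance families were measured too. Over all tested genes limma called 9.42% higher and 7.07% lower, and 24.8% and 28.7% with the block. Of 13 tested Eph and ephrin genes, limma called Efna1 (log2 -2.02) and Ephb4 (log2 -1.95), a receptor of veins, lower (limma adjusted p = 0.0454 and 0.0442), and 7 with the block. Neither was called after the GC correction, with Efna1 at log2 -0.91, limma adjusted p = 0.149 and Ephb4 at log2 0.04, limma adjusted p = 0.925. Robo2, an axon guidance receptor, rose from 0.483, 0.0962 and 0.0243 cpm in floxed to 4.57, 3.87 and 6.13 cpm in H3atKO pools (log2 5.22, limma adjusted p = 0.0208), and it remained called after the GC correction (log2 4.38, limma adjusted p = 0.0341). In floxed replicate 3 it lay below the worth of 3 counts (0.0992 cpm before scaling), so the size of its change rests on few floxed reads. The Robo2 ligand Slit3 fell from 159.9, 102 and 37.4 cpm to 5.60, 11.6 and 9.23 cpm (log2 -3.35, limma adjusted p = 0.0287), and was not called after the correction (log2 -1.67, limma adjusted p = 0.0552). These were the 2 calls among 5 tested Slit and Robo genes. Ntn1, the guidance cue netrin, was the single call of 8 netrin genes and fell from 30.0, 18 and 19.7 cpm to 2.92, 2.19 and 1.33 cpm (log2 -3.37, limma adjusted p = 0.0123). The block called 4 netrin genes lower, and after the GC correction none was called, with Ntn1 at log2 -1.49, limma adjusted p = 0.105. No gene of 8 in the VEGF family was called by limma. At an unadjusted p under 0.05 limma had 3 lower, edgeR called 2, DESeq2 3, the replicate block 5 and the GC correction 2, all lower. Of all tested genes edgeR called 18.4% lower, DESeq2 23.2% and the GC correction 3.1%.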

How the data were processed

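RNA-seq of IngWAT was analysed in 3 floxed and 3 H3atKO pools, grouped by the sample labels. The authors made stranded poly(A) libraries and, per the submitters' processing notes, used Cutadapt 1.3, STAR 2.4.2a on GRCm38 and HTSeq 0.6.1. They deposited whole-number counts per Ensembl gene, neither normalized nor filtered. The 5 closing tallies of each file name no gene, were 37.3% to 51.7% of all lines' sums, and were left out. Alignments to several places within them were 28.3% to 35.2% in floxed and 43.8% to 45.5% in H3atKO libraries. Symbols, exon lengths and GC content came from GENCODE M21, where 46005 of 46517 identifiers matched. RPKM is TMM-scaled cpm per kilobase of merged exons.

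As in the study's methods, a gene had to reach 1 cpm in 1 or more libraries, and genotypes were compared with limma 3.58.1 (voom, TMM from edgeR 4.0.16, R 4.3.3, genotype as the only term, Benjamini-Hochberg over all tested genes). Alternatives were edgeR's quasi-likelihood test, DESeq2 1.42.0, library sizes alone, no filter, the replicate number as a block, a GC correction (loess, span 0.3), block with correction, and each library left out. Pairing by number was inferred from the data, since the labels do not explain the numbers. Deviations from the genotype means correlated with r of 0.510, 0.389 and 0.264 for the same number, and of -0.295 to -0.0516 otherwise. Such deviations cancel within a genotype, so positive values for the same number bring negative values among the others. The negative values therefore add no separate evidence of pairing. The block was then fitted to the same libraries. From replicate 1 to 3 the correlation with GC content fell in both genotypes, and its part in the pairing was not tested. The fits were also run on simulated counts with known changes, which held no GC trend and no pairing of replicates. The outcome is not given here. Marker sums were set against each other with an exact permutation test (two-sided).

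The members, the partner, guidance and marker lists and the alternatives were chosen with earlier results of these data known. Full statistics are given for members called by limma with or without the block and for the 8 with the highest mean RPKM. From each partner or guidance list at most the 3 called genes with the largest change are named. Floors of 3 counts cover counting error only. Protein sequences were not used here.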

Additional observations from a re-analysis of the deposited data

How the results depend on the processing

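Every alternative ran. The replicate block (the pairing of libraries by number) changed no direction of a member and moved the calls to 4 higher and 15 lower, from 1 and 5. Counts of members called higher otherwise moved to 2 with DESeq2, 3 with the block and the GC correction, and 0 to 1 when single libraries were left out. Counts called lower moved to 13 with edgeR, 13 with DESeq2, 1 with the GC correction, 21 with library sizes alone, and 0 to 14 when single libraries were left out. The median log2 fold change moved to -1.78 for semaphorins and -1.78 for receptors with library sizes alone, and for receptors to -0.11 with the GC correction and -0.088 with block and correction. It ranged from -1.30 to -0.73 for semaphorins and from -1.11 to -0.87 for receptors when single libraries were left out. The cause was not tested.

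Signs changed for 2 members with library sizes alone, Nrp1 (-0.68) and Plxna2 (-0.79), and for Plxna2 without the filter (-0.052). With the GC correction they changed for Nrp1 (-0.73), Nrp2 (0.22), Plxnb3 (0.59), Plxnd1 (0.084), Sema3d (-0.12), Sema4a (1.54), Sema4b (0.75), Sema4f (1.18) and Sema7a (0.094). With the block added to it the same 9 stood at -0.73, 0.23, 0.65, 0.10, -0.16, 1.59, 0.73, 1.12 and 0.15. When single libraries were left out, Nrp1 ranged from -0.068 to 0.44, Plxna2 from -0.23 to 0.21 and Sema4a from -0.29 to 0.24. With 3 pools a genotype and low counts in H3atKO pools, changes of members such as Sema4f, Sema5b, Sema6b, Sema6c, Plxna3 and Plxnb3 rest on few reads.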
